A study of Mus musculus with 3 samples.

Results

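The vacuolar-type proton pump (V-ATPase) is described here through 10 subunit genes measured in wild-type control mouse cortical neurons: Atp6v0a1, Atp6v0c, Atp6v0d1, Atp6v1a, Atp6v1b2, Atp6v1c1, Atp6v1d, Atp6v1e1, Atp6v1g2 and Atp6v1h. These 10 genes were listed by name, and they stand among 18119 nuclear coding genes with a value. Total RNA was sequenced in 3 libraries, named replicates 1 to 3, which form 1 group of wild-type control cells (genotype WT, treatment CON), so no comparison between conditions exists and every comparison is between genes inside a library. The labels give no age, strain or culture time. Values are TPM, a transcript abundance scaled by length and library total. The total runs over all 84660 transcript rows, which share reads, so a gene's value is lower than on a scale of genes. Each gene is represented by the coding transcript model with the most reads. Each error is the SD of the 3 values. The labels do not state whether separate cultures or animals gave the libraries, so p-values measure only the spread between these samples, which may be technical.

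The V-ATPase is a rotary machine. Its cytosolic V1 sector hydrolyses ATP and turns a ring in the membrane-bound V0 sector, which carries protons into lysosomes, endosomes and secretory vesicles. In neurons the same pump acidifies synaptic vesicles, and the vesicular transporters use that proton gradient to load glutamate, GABA and monoamines. Several subunits exist as paralogs, 1 used in most cells or in brain and others known from kidney, osteoclasts or testis.

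Levels of 9 members lay close together and near the top of the coding genes, while Atp6v0c, which encodes the proton-carrying ring subunit c, was listed at under 1 TPM. A mean of at least 1 TPM, here called expressed, was reached by 9 of the 10 members and by 61.8% of all nuclear coding genes. The median level was 105 TPM over the 10 members and 113 TPM without Atp6v0c, against 2.91 TPM over all nuclear coding genes. On the log2(TPM + 0.1) scale the members' median exceeded that of all coding genes by 5.12 ± 0.12 (SD, n = 3). The 9 expressed members ranged from 77.0 to 199.5 TPM, a 2.59-fold range, and each stood above at least 97.6% of the coding genes. Between 6335 and 29569 reads per library lay behind each of them, so counting error is small beside the spread between libraries.

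The low value of Atp6v0c goes with a near-identical copy of its mRNA elsewhere in the genome, and the sequences are shown for that reason. Atp6v0c (ENSMUSG00000024121.13) spans chr17:24163866-24169702 on the minus strand of GRCm38 in 3 exons. A copy of the spliced mRNA, without introns, lies on the plus strand at chr6:37805989-37807088. Bases 81 to 1180 of the 1183-base mRNA run there without a gap, and the 2 sequences differ at 2 of these 1100 bases. Counted from 1 at the 5′ end of the mRNA, the differences are T136C, before the coding bases, and T288C, inside them (the mRNA's base first, the copy's base after the position). The annotated pseudogene Atp6v0c-ps2 covers the coding part of the copy, chr6:37806086-37806550. The first 150 coding bases (mRNA bases 178 to 327) of the gene and of the copy follow, with the differing base in capitals. In the gene this stretch crosses a splice junction, and in the copy the same letters are continuous.
Atp6v0c mRNA: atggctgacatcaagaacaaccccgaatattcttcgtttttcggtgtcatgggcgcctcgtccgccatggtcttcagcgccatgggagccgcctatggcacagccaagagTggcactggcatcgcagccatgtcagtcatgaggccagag
Atp6v0c-ps2: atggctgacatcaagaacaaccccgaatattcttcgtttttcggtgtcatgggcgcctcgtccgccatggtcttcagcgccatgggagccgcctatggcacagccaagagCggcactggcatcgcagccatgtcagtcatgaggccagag

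Most reads in the table stood on the copy's row and few on the gene's. Atp6v0c had 0.726, 0.430 and 0.537 TPM in replicates 1, 2 and 3, from 44, 22 and 29 reads. The Atp6v0c-ps2 row had 279, 295 and 302 TPM, from 6655, 5940 and 6407 reads, a mean of 292 ± 11.6 TPM (SD, n = 3). That row was above every member in every library, and the gene's own row was below every other member. The other models of the gene were as low, and the 6 models had means between 0.428 and 0.731 TPM. Of 114 stretches of 50 bases taken along the Atp6v0c mRNA, 18 (15.8%) had no exact match outside the gene, and 8 of these began before the point where the copy starts. Of the 416 windows of 50 bases in Atp6v0c-ps2, 88.0% were identical to the gene. How the submitters' alignment placed reads that match both loci is not given in the sources used here, and its part in these values was not tested. The level of subunit c therefore cannot be read from either row, and the summaries below that Atp6v0c enters are given without it where it moves them.

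**Figure D1:**
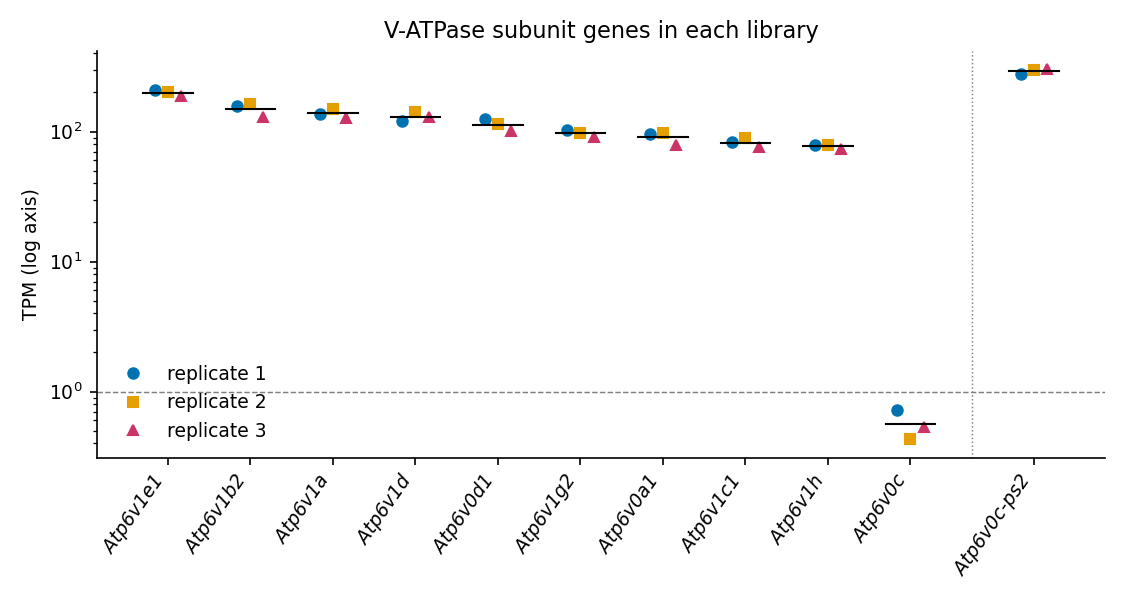
TPM (log axis) of the 10 members in order of mean level, and of the pseudogene row Atp6v0c-ps2 at the right; points are the 3 libraries, bars the mean, and the dashed line marks 1 TPM. The 9 expressed members lie between 77.0 and 199.5 TPM on average, Atp6v0c lies at 0.56 TPM and Atp6v0c-ps2 at 292 TPM.

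Among the V1 members, Atp6v1e1 and both genes of the catalytic head had the highest means, though Atp6v1d passed both head genes in replicate 3. Atp6v1e1 (ENSMUSG00000019210.10, chr6:120794305-120822793, minus strand), whose product is part of the stalks that hold the head in place, had 209, 203 and 187 TPM in replicates 1, 2 and 3, a mean of 199.5 ± 11.6 TPM. It was the highest member in each library. Atp6v1b2 (ENSMUSG00000006273.14, chr8:69088646-69113711, plus strand), the B subunit that alternates with A in the head, had 156, 163 and 129.5 TPM, a mean of 149.5 ± 17.6 TPM. Atp6v1a (ENSMUSG00000052459.13, chr16:44085402-44139705, minus strand), the catalytic A subunit that binds and hydrolyses ATP, had 136, 149.9 and 128 TPM, a mean of 138 ± 11.1 TPM. Both partners of the head were lowest in replicate 3.

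The central stalk gene Atp6v1d (ENSMUSG00000021114.9, chr12:78840725-78861638, minus strand), whose product turns with the ring, had 119.9, 142 and 129.6 TPM, a mean of 130.4 ± 11.0 TPM. It was the only member lowest in replicate 1. Atp6v1g2 (ENSMUSG00000024403.16, chr17:35233660-35238767, plus strand), the G subunit of the peripheral stalks in neurons, had 103, 97.0 and 90.8 TPM, a mean of 97.0 ± 6.31 TPM. The regulatory subunits that tie V1 to V0 and control its release were the lowest of the 7 V1 members, except that Atp6v1h passed Atp6v1g2 (106 and 100.3 TPM) when the coding transcript with the highest TPM stood for each gene. Atp6v1c1 (ENSMUSG00000022295.8, chr15:38661933-38692446, plus strand), the C subunit, had 82.7, 88.6 and 75.8 TPM, a mean of 82.4 ± 6.41 TPM. Atp6v1h (ENSMUSG00000033793.12, chr1:5070018-5162529, plus strand), the H subunit, had 79.2, 78.6 and 73.2 TPM, a mean of 77.0 ± 3.28 TPM.

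In V0, Atp6v0d1 (ENSMUSG00000013160.7, chr8:105524465-105566047, minus strand), the subunit that couples the central stalk to the ring, had 124, 114 and 101 TPM, a mean of 113 ± 11.8 TPM. Atp6v0a1 (ENSMUSG00000019302.16, chr11:101009452-101063719, plus strand), the large membrane subunit a1 through which protons leave the ring, had 95.2, 98.1 and 78.7 TPM, a mean of 90.7 ± 10.5 TPM. The median over the 7 V1 members exceeded that over the 3 V0 members by 0.52 ± 0.18 on the log2(TPM + 0.1) scale, and by 0.36 ± 0.20 without Atp6v0c. The difference describes the listed members and not the whole sectors. Expressed V0 genes outside the list ran from 6.68 TPM (Atp6v0a2) to 173 TPM (Atp6v0b). Expressed V1 genes outside it were Atp6v1g1 at 62.4 TPM and Atp6v1f at 51.1 TPM. No p is given for the difference between V1 and V0 members, since it is a score over listed genes.

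The order of mean levels was taken from the same values that are compared here, so the counts and p-values describe that order and do not test it independently. In it, 6 of the 9 neighbouring pairs had the same sign in the 3 libraries and a mean difference larger than its SD. Without Atp6v0c, 5 of 8 pairs did. The other 3 pairs did not differ beyond their spread. These were Atp6v1a and Atp6v1d (log2 difference 0.08 ± 0.10), Atp6v1d and Atp6v0d1 (0.21 ± 0.23), and Atp6v1g2 and Atp6v0a1 (0.10 ± 0.11). The gap between Atp6v1e1 and Atp6v1b2 was 0.42 ± 0.10, higher in 3 of 3 libraries (two-sided exact sign-flip permutation p = 0.25, adjusted 0.375 over the 9 pairs). With 3 libraries, 0.25 is the smallest p that this test allows, so no pair could reach 0.05. The order depends on which transcripts stand for a gene. With the sum over coding transcripts, which counts shared reads repeatedly, Atp6v1a (648 TPM), Atp6v0a1 (469 TPM), Atp6v1h (417 TPM) and Atp6v1g2 (276 TPM) were above Atp6v1e1 (199.5 TPM).

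In each of the 8 paralog pairs compared, the member was higher than its paralog in 3 of 3 libraries. The members were listed with earlier results of these data known. This count and the p-values of these pairs are therefore descriptions, not independent support. Atp6v0c, whose level cannot be read, was in none of these pairs. Subunit a was represented mainly by Atp6v0a1. Atp6v0a1 at 90.7 ± 10.5 TPM stood beside Atp6v0a2, of endosomes and Golgi, at 6.68 ± 0.24 TPM. The log2 difference was 3.74 ± 0.12, or a ratio of 13.6 ± 1.11. Tcirg1, the a3 subunit of osteoclasts and lysosomes, had 0.51 ± 0.04 TPM, a difference of 7.21 ± 0.26. Atp6v0a4, the renal a4 subunit, had 0.54 ± 0.06 TPM, a difference of 7.15 ± 0.31. The exact sign-flip permutation p was 0.25 for each of the 8 paralog pairs, and 0.25 after adjustment over them.

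The same held for subunits d, B, C and E. Atp6v0d1 exceeded Atp6v0d2, known from osteoclasts and kidney, by 9.28 ± 0.38, with 113 ± 11.8 TPM for the first and 0.090 ± 0.068 TPM for the second gene. Atp6v0d2 had 21, 9 and 3 reads, and the difference was 6.70 with a pseudocount of 1 and 10.41 with 0.01. Atp6v1c1 exceeded Atp6v1c2 by 6.27 ± 0.22, at 82.4 ± 6.41 TPM beside 0.97 ± 0.10 TPM. Atp6v1e1 exceeded Atp6v1e2, a testis gene, by 10.38 ± 0.05. Atp6v1e2 had 3, 2 and 2 reads, so the size of that difference rests on the pseudocount of 0.1. Atp6v1b1, the B subunit of renal intercalated cells, was listed at 0 in replicates 1 and 3 and had 1 read in replicate 2. Per base of transcript, reads on Atp6v1b2 were about 41888 times those on Atp6v1b1, with a 95% Clopper-Pearson interval of 7518 to 1654505 that covers counting error only. At the annotated length of 1999 bases the read count of Atp6v1b1 was 1.04 before rounding. The length behind its listed value was not recovered, so the ratio is approximate.

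Subunit G was the exception in size. Atp6v1g2 had 103, 97.0 and 90.8 TPM, while Atp6v1g1, the G subunit of most tissues, had 64.1, 61.2 and 62.0 TPM. The values of the 2 genes did not overlap, and the log2 difference was 0.63 ± 0.07, a ratio of 1.55 ± 0.08 (exact sign-flip permutation p = 0.25, n = 3). Of the stretches of 50 bases along Atp6v1g1, 42.2% had no match elsewhere, against 100% for Atp6v1g2, so the level of Atp6v1g1 is uncertain. The annotated pseudogene row with the most shared stretches, Gm13453, had 1.69, 1.36 and 0.74 TPM. The part of these copies in the difference was not tested.

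**Figure D2:**
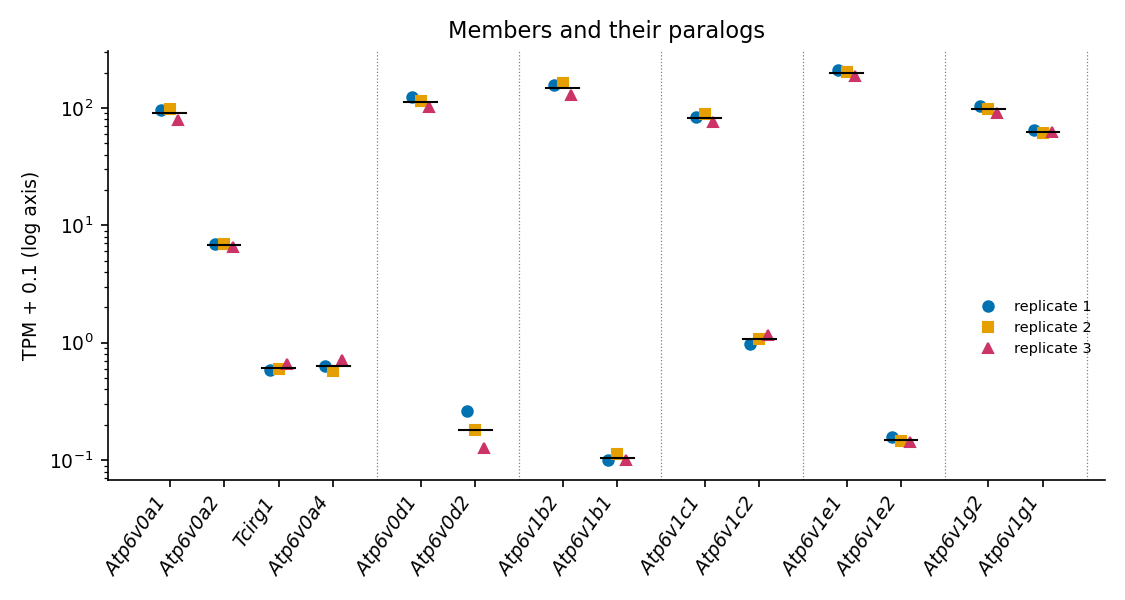
TPM + 0.1 (log axis) of the members in the paralog pairs and of their paralogs, grouped by subunit between dotted lines, with the member first; points are the 3 libraries and bars the mean on the log scale. Each member shown lies above the paralogs shown with it, by the least in subunit G (1.55-fold).

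The pump has further single-gene subunits outside the 10. Of 16 other V-ATPase genes with a value, 9 were expressed, against 61.8% of all nuclear coding genes. The 7 below 1 TPM were Tcirg1, Atp6v0a4, Atp6v0d2, Atp6v1b1, Atp6v1c2, Atp6v1e2 and Atp6ap1l, a relative of Atp6ap1. Atp6v0b, the c″ subunit that sits in the ring beside c, had 198, 159.9 and 160.2 TPM, a mean of 173 ± 21.8 TPM, in the range of the expressed members. The further V0 genes Atp6v0e2 and Rnasek had 138 ± 13.1 and 73.5 ± 7.78 TPM. Atp6v0e, the paralog of Atp6v0e2 in most tissues, had 11.1 ± 1.67 TPM. The accessory subunit genes Atp6ap2, also called the prorenin receptor, and Atp6ap1 had 139 ± 10.1 and 125.5 ± 5.84 TPM. Atp6v1f, of the central stalk, had 51.1 ± 7.75 TPM, and 69.7% of its stretches of 50 bases were unique.

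Genes that assemble, regulate or use the pump had medians of 9.44 TPM (assembly factors), 11.5 TPM (regulators) and 0.650 TPM (vesicular transporters), against 105 TPM for the members. Of 3 assembly factor genes, all were expressed, against 61.8% of all nuclear coding genes. Tmem199 had 21.6 ± 0.55 TPM, Vma21 9.44 ± 1.2 TPM and Ccdc115 9.25 ± 1.03 TPM. Of 9 regulators that bring V1 and V0 together or apart, 8 were expressed, against the same 61.8%. Oxr1, of the TLDc family, had 25.5 ± 1.81 TPM, Rogdi, a rabconnectin partner, had 23.2 ± 1.11 TPM, and Dmxl2, a rabconnectin of synaptic vesicles, had 21.2 ± 2.52 TPM. Tldc2 was lowest at 0.12 ± 0.09 TPM. Among 9 vesicular transporters driven by the proton gradient, 4 were expressed, again against 61.8%. Slc17a7, the glutamate transporter VGLUT1, led at 89.98 ± 4.47 TPM, above Atp6v1c1 and Atp6v1h. Slc32a1, the GABA transporter, had 21.7 ± 4.86 TPM and Slc17a6, VGLUT2, 6.28 ± 1.23 TPM. Slc18a3, the acetylcholine transporter, was lowest, with 2 reads, both in replicate 1.

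Lysosomal partners of the pump in nutrient sensing, the Ragulator and Rag GTPase genes, had a median of 24.2 TPM, below that of the members. All 10 Ragulator and Rag GTPase genes were expressed, against 61.8% of all nuclear coding genes. Rraga had 56.6 ± 0.90 TPM, Lamtor2 43.6 ± 4.34 TPM and Rragb 36.3 ± 2.42 TPM, and Slc38a9 was lowest at 1.71 ± 0.09 TPM. Of 5 genes for the MiT/TFE factors, known regulators of lysosomal genes, and folliculin, 2 were expressed, against 61.8% of all nuclear coding genes. They were Tfe3 at 7.77 ± 0.33 TPM and Flcn at 7.46 ± 0.36 TPM. The median of this list was 0.603 TPM, below the 2.91 TPM of all nuclear coding genes. Tfeb stood at 0.60 ± 0.03 TPM, and Tfec had 2 reads, both in replicate 2.

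**Figure D3:**
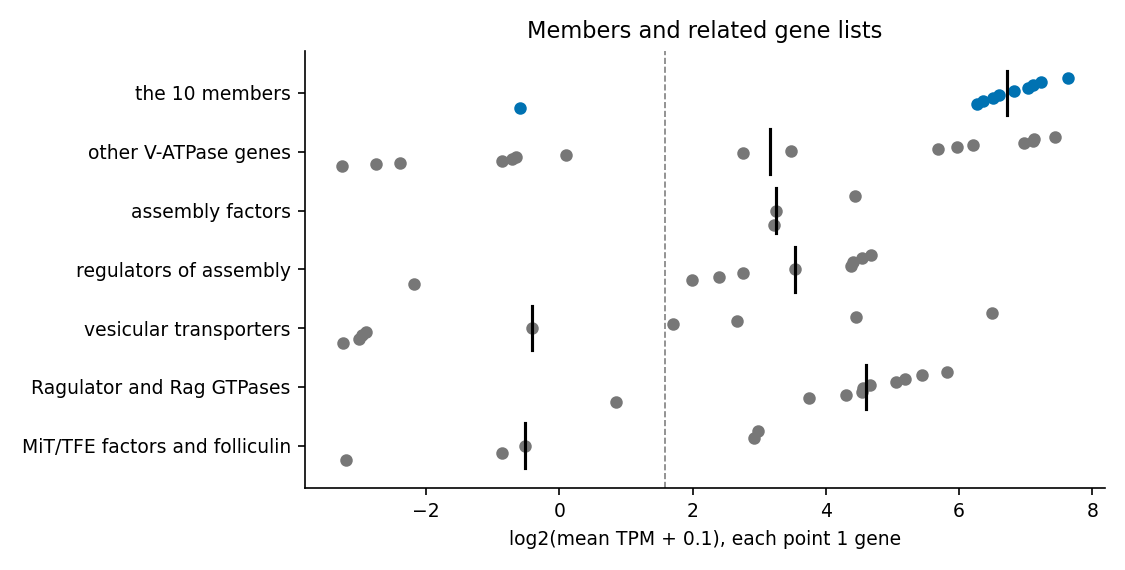
Mean level of each gene on the log2(TPM + 0.1) scale for the 10 members, the other V-ATPase genes and 5 related lists; black bars are list medians and the dashed line is the median of all nuclear coding genes (2.91 TPM). The members lie at the right end except Atp6v0c.

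Known MiT/TFE binding rests on the E-box letters CACGTG, so promoters were read for them on both strands. RefSeq promoter windows on GRCm38, from 250 bases before to 50 bases after each start, were at hand for 7 of the 10 members. CACGTG was found in 2 of these 7, Atp6v0d1 and Atp6v1a, and in 8.09% of the 27025 genes with a window. Of 12 other V-ATPase genes with a window, 2 held CACGTG, Atp6v0b and Atp6v0e. With a T before it the same 2 members matched, against 4.29% of genes. The GC box letters GGGCGG were found in 5 of 7 members, against 38.2% of genes. The windows of the 2 members with an E-box follow, with its letters in capitals. Atp6v0d1 is shown from chr8:105566015-105566314 and Atp6v1a from chr16:44139210-44139509, both on the minus strand. In Atp6v0d1 the match begins 3 bases before the annotated start, and in Atp6v1a 131 bases before it.
Atp6v0d1 promoter: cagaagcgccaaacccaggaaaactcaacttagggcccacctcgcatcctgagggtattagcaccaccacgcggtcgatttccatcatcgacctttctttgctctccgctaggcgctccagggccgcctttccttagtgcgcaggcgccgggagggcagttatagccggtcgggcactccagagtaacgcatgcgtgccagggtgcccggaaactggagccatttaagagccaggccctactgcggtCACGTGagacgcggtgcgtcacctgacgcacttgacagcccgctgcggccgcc
Atp6v1a promoter: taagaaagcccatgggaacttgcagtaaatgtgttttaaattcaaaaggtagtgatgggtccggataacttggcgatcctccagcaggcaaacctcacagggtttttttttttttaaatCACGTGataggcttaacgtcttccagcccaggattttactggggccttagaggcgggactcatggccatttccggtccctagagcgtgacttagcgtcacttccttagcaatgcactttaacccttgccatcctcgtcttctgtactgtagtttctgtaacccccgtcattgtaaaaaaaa

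These matches are descriptions of the letters, not of binding, and the shares were not tested. The 2 members with an E-box did not stand apart in level, at 113 ± 11.8 TPM for Atp6v0d1 and 138 ± 11.1 TPM for Atp6v1a, inside the range of the expressed members without one (90.7 to 199.5 TPM among those with a window).

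The series' design text names gene length categories, and the members are short to middle-sized. Atp6v1g2 (5.11 kb) and Atp6v0c (5.84 kb) were under 10 kb, where the median of 5033 coding genes was 0.95 ± 0.02 TPM. Atp6v1d (20.9 kb), Atp6v1b2 (25.1 kb) and Atp6v1e1 (28.5 kb) fell in the class of 10 to 30 kb, with a median of 3.002 ± 0.05 TPM over 5742 genes. Atp6v1c1 (30.5 kb), Atp6v0d1 (41.6 kb), Atp6v0a1 (54.3 kb), Atp6v1a (54.3 kb) and Atp6v1h (92.5 kb) fell in the class of 30 to 100 kb, with a median of 4.06 ± 0.08 TPM over 4893 genes. No member was longer than 100 kb. Spearman's rho between span and level was -0.05 over the 10 members and -0.38 over the 9 expressed members, where Pearson's r was -0.15, a description of genes that share the same libraries.

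Variation between libraries was small and mostly in 1 direction. The SD over libraries on the log2(TPM + 0.1) scale ranged from 0.06 for Atp6v1h to 0.18 for Atp6v1b2 among the 9 expressed members, with a median of 0.12. Over all expressed coding genes the median SD was 0.11. Replicate 3 was lowest for 8 of the 10 members, against 41.0% of expressed coding genes. The exceptions were Atp6v1d, lowest in replicate 1 as were 33.6% of expressed coding genes, and Atp6v0c, lowest in replicate 2 as were 25.4%. Replicate 2 was highest for 5 members, against 40.4% of expressed coding genes, and replicate 1 for the other 5, against 28.2%. Replicate 3 was highest for 0 members, against 31.4% of expressed coding genes. Replicate 3 minus the mean of replicates 1 and 2 had a median of -0.15 over the members and -0.16 without Atp6v0c, against -0.03 over all expressed coding genes.

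Neuronal and astrocyte markers moved with the same library, in opposite directions. The summed level of 7 neuronal genes was 1889, 1944 and 1663 TPM in replicates 1, 2 and 3, and 7 of 7 were lowest in replicate 3. The sum of 6 astrocyte genes was 410, 438 and 505 TPM, and 5 of 6 were highest in replicate 3. The sum of 6 oligodendrocyte lineage genes was 64.0, 48.8 and 80.3 TPM, with 3 highest and 2 lowest in replicate 3. For 6 microglial genes it was 2.07, 2.09 and 1.09 TPM, with 4 lowest in replicate 3 and Tmem119 at 0. Sums ran from 8.69 to 11.1 TPM for 4 proliferation genes, and from 0.55 to 0.84 TPM for 4 endothelial genes, with Cldn5 at 0. The neuronal label thus held on these markers, in libraries that also carried astrocyte and oligodendrocyte lineage RNA and low levels of proliferation genes. All these cells use V-ATPases, and in bulk RNA fewer cells of a type and less RNA per cell cannot be told apart. The part of cell composition in the low values of replicate 3 was not tested.

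**Figure D4:**
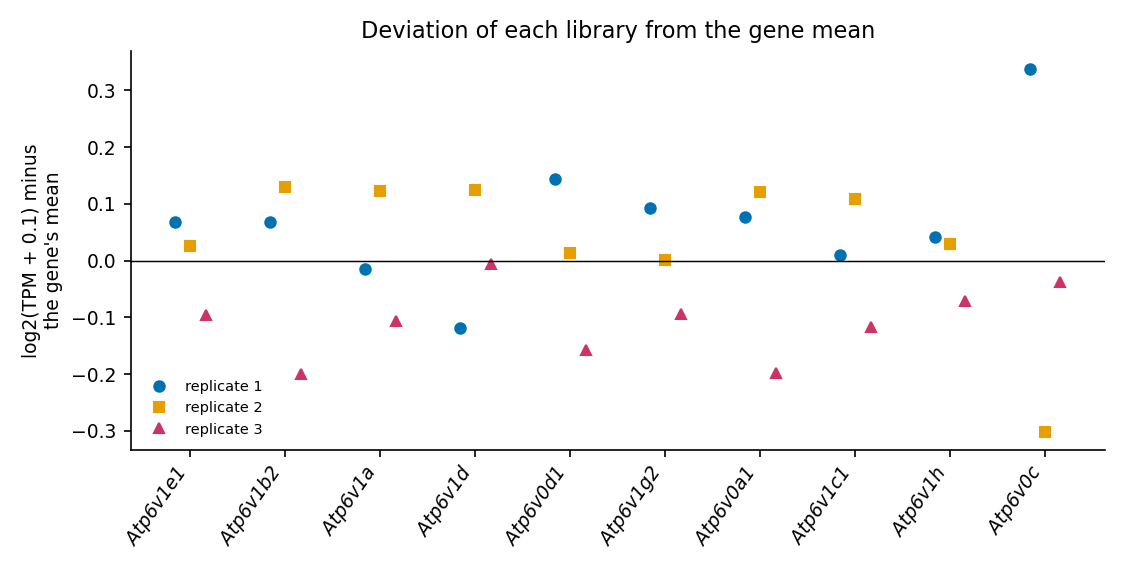
Deviation of each library from the gene's mean on the log2(TPM + 0.1) scale, for the members in order of level. Triangles (replicate 3) are lowest for 8 of 10 members, and the spread is widest for Atp6v0c (22 to 44 reads).

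Levels of short transcript models relative to their gene differed between libraries as well. The table has 47 transcript rows for the 10 members, and models of a gene share reads, so they are not separate measurements. For Atp6v0a1, 3 long coding models had 19360, 19355 and 19327 reads in replicate 1, and which of them the reads came from cannot be told apart. Counts on short models inside a gene can reflect how reads lay along it, use of the short model itself and, in retained-intron models, reads from introns as well. Position along the gene and use of a short model cannot be told apart in these counts. Atp6v1h-202, which has 4 exons between the 5′ end and the midpoint of Atp6v1h, had 97.0, 101 and 119.5 TPM in replicates 1, 2 and 3. The full Atp6v1h model had 79.2, 78.6 and 73.2 TPM. The short model was thus highest in replicate 3 and the full model lowest there. As a share of the full model it was 122.5%, 129% and 163%.

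Atp6v1b2-203, a retained-intron model at the 5′ end of Atp6v1b2, had 18.1%, 17.8% and 26.3% of the gene's value. Slc18a1, on the other strand over that end, had 2, 7 and 3 reads. Between the 5′ end and the midpoint of members, 8 of 8 spliced short models, from 3 genes and partly overlapping, were higher relative to their gene in replicate 3 than in the mean of replicates 1 and 2. Among all expressed coding genes 64.8% of 6499 such models were. Their median change was 0.22 on the log2 scale for the 8 member models, against 0.07 for all. Between the midpoint and the 3′ end, 2 of 6 member models were relatively higher in replicate 3, against 52.0% of 9539 models. Both sides include retained-intron models, on the 5′ side Atp6v1b2-203, Atp6v1h-203 and Atp6v1h-208. In such models intron reads and position along the gene cannot be told apart. These are the same libraries in which 8 of the 10 members were lowest in replicate 3. The part of coverage or of short model use in that result was not tested.

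**Figure D5:**
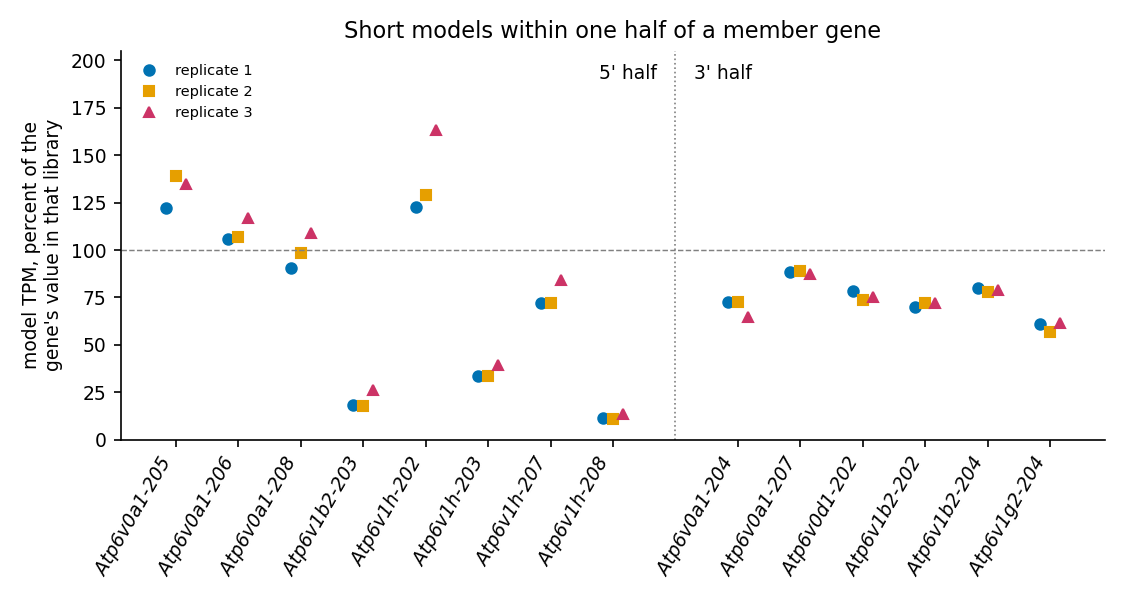
TPM of short spliced models of member genes as a percentage of the gene's value in the same library, for models on the 5′ side (left) and the 3′ side (right) of the gene's midpoint; the dashed line is 100%. On the 5′ side, triangles (replicate 3) are highest for 7 of 8 models, up to 163% for Atp6v1h-202.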

How the data were processed

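Per the file header and name, the authors deposited 1 table of TPM for 84660 GENCODE M4 transcripts in 3 libraries. FastQC 0.11.2, STAR 2.5.3a, featureCounts, Subread 1.4.6 and build mm10 are named in the submitters' processing notes, without roles. No column of another sample was used, and no 2 columns were identical. Libraries correlated at 0.996 to 0.997 across genes.

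Transcripts were matched without version to GENCODE M21 (GRCm38), and 98.1% matched. Multiplied by exonic length, TPM gave whole reads with 1 constant per library, within 0.01 of a read, for 99.8% of rows whose ends are the same in both releases and 90.0% of all matched rows above 0. Reads were taken from it. Over 13658 coding genes with whole reads, libraries held 23624340, 20865610 and 20509554 reads. For the members Atp6v1c1, Atp6v1d and Atp6v1e1, whose models changed, reads came from the shortest length that made them whole in each library (2097, 1403 and 1203 bases). For Atp6v1b1 no such length was recovered.

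A gene's value is its coding transcript with the highest mean TPM times exonic length. Differences are of log2(TPM + 0.1) inside a library, which understates differences of low genes. Uniqueness was searched with exact matches of 50 bases, every 10 bases, on both strands of 22 chromosomes. Short models needed at least 2 exons, a mean of 50 reads and both ends on the same side of the gene's midpoint. Named genes are the members, the other V-ATPase genes and, per related list, the 3 highest and the lowest, and genes of like level to the highest, the 6th and the lowest member. A gene that the last rule names is not reported here. Members and lists were chosen with earlier results of these data known; the copy, the uniqueness search and the short models were examined after values were seen. Alternatives are listed in the closing section. Recovery of whole reads and of planted log2 differences was tested on simulated data, and the permutation test, interval and correlations were not. Atp6v1g3 and protein sequences were not analysed here. Python 3.11.15, numpy 2.4.6, pandas 2.3.3, scipy 1.17.1 and matplotlib 3.10.9 were used.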

Additional observations from a re-analysis of the deposited data

How the results depend on the processing

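The 64 values of the 8 paralog differences, recomputed under other transcript choices, pseudocounts, scalings and left-out libraries, kept their sign. None of these settings changed how reads that match several loci were placed. The sign of Atp6v1g2 minus Atp6v1g1, where 42.2% of Atp6v1g1 stretches were unique, was therefore not tested against that. The size of the differences and the order of the members did not always hold. Of 60 recomputed member levels, 18 moved by more than the SD between libraries, 10 of them through rescaling. With the coding transcript of highest TPM, Atp6v1h (106 TPM) passed Atp6v1g2 (100.3 TPM) and Atp6v0a1 (99.2 TPM). The members' median minus that of all coding genes, 5.12 log2 units, was 4.75 with a pseudocount of 1 and 3.74 among genes of at least 1 TPM. V1 minus V0, 0.52, was 0.82 with the sum over coding transcripts, which counts shared reads repeatedly. The members' median level was 174 TPM with that sum and 484 TPM when rescaled to nuclear coding genes. Atp6v0c passed 1 TPM under both of these, so that 10 members were then expressed. Atp6v1g2 minus Atp6v1g1 was 2.14 with the sum, Atp6v0a1 minus Atp6v0a2 was 6.11 in place of 3.74, and Atp6v1c1 minus Atp6v1c2 was 4.02 in place of 6.27. Without each replicate in turn Atp6v1g2 minus Atp6v1g1 lay between 0.61 and 0.68, and V1 minus V0 between 0.43 and 0.61. Leaving out Atp6v0c was chosen after seeing the data. Without it the members' median difference was 5.21, and 8 of 9 members were lowest in replicate 3. No pairing of samples between groups was possible because the libraries form 1 group. Differences between genes were paired by library, since they were taken inside each library. The depth limits Atp6v0d2, Atp6v1b1, Atp6v1e2, Slc18a3 and Tfec, which rest on a few reads.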

Other observations

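Outside the lists, the coding genes whose levels were most like those of 3 members over the 3 libraries were found by the smallest largest difference on the log2(TPM + 0.1) scale. For the highest member, Atp6v1e1, these were Rab3a (204, 204 and 190.4 TPM, within 0.04) and Oxct1 (within 0.11). For the sixth member, Atp6v1g2, Nsmf lay within 0.04. For Atp6v0c they were Aspdh and Ccnb1, within 0.10 and 0.11, at the uncertain level of 0.56 TPM. Likeness in level over 3 libraries of 1 group says nothing of shared function.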
